A study of Mus musculus with 6 samples.

Results

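The genes that make and break down the transmitter γ-aminobutyric acid (GABA) were described in the mouse β-cell line MIN6, with *Gad1* and *Gad2* for synthesis and *Abat* and *Aldh5a1* for breakdown. These 4 genes, of 16640 in the deposited table, were taken by symbol, and they were chosen on their read counts in these same libraries, among them the difference of replicate 3 from replicates 1 and 2. Their levels, their replicate 3 differences and their balance are therefore given as description, with no test. MIN6 cells came from a mouse insulinoma, and all cells here carried lentiviral catalytically dead Cas9 (dCas9). In *Thada*-activated cells, a stable line, a guide RNA to the *Thada* promoter recruited the activators of the SAM system, and the line had been selected with puromycin and G418. Control cells held dCas9 with a guide RNA that has no target. RNA of each condition was sequenced in 3 libraries, numbered 1 to 3. The sample labels do not say what separates the libraries of a condition, and a general statement on in vitro work in the study speaks of independent experiments without naming these libraries. The p-values here therefore measure only how far these libraries spread, which may be technical.

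GABA is formed from glutamate by glutamate decarboxylase, an enzyme that needs pyridoxal phosphate and has isoforms encoded by *Gad1* and *Gad2*. The product of *Gad1* is mostly soluble and active, whereas that of *Gad2* sits on vesicle membranes, is often found without its cofactor and is a major autoantigen of autoimmune diabetes. In mitochondria, GABA transaminase (*Abat*) turns GABA into succinic semialdehyde, and succinic semialdehyde dehydrogenase (*Aldh5a1*) oxidises this to succinate, which enters the TCA cycle. Pancreatic β-cells are among the few cells outside the nervous system that hold much GABA, and they release it to act on receptors of islet cells.

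The libraries held from 17166511 to 17727004 estimated counts on the listed genes. Replicate 3 stood apart in both conditions: the first principal component of the 12516 genes tested held 83.8% of the variance and placed both replicate 3 libraries on the opposite side from the other 4. The insulin gene *Ins2* took 10.2% of the counts in control replicate 3 and 8.36% in *Thada*-activated replicate 3, against 5.65% to 6.44% in the others. *Pdx1*, a transcription factor of β-cells, had 106 and 112 CPM (counts scaled to a common library size by TMM) in the replicate 3 libraries and from 204 to 232 CPM in the others. Of the other β-cell markers, *Ins1* was higher in replicate 3 in both conditions, as *Ins2* was. Below the mean of replicates 1 and 2 in both conditions, as were 42.9% of all tested genes, were *Iapp*, *Mafa*, *Nkx6-1*, *Nkx2-2*, *Neurod1*, *G6pc2*, *Slc30a8*, *Ucn3*, *Pcsk1* and *Pcsk2*. *G6pc2* was only slightly lower in *Thada*-activated cells (0.988-fold). Of 14 β-cell markers, all were above 3 counts in at least 1 library, but *Slc2a2*, the glucose transporter of mouse β-cells, had only 1 to 9 counts. *Thada* itself had 28.0, 28.9 and 17.2 CPM in control replicates 1, 2 and 3. The matching *Thada*-activated values were 57.3, 56.2 and 49.1 CPM. Every *Thada*-activated library was thus above every control library, as the labels say.

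Per length, in the FPKM values of the authors, *Abat* had the highest level of the 4 genes. Its mean was 22.5 ± 6.07 FPKM in control and 24.4 ± 5.0 in *Thada*-activated libraries (SD, n = 3). *Aldh5a1* came next at 5.77 ± 0.415 and 5.55 ± 0.689 FPKM. *Gad1* had 5.50 ± 5.85 and 5.36 ± 5.82 FPKM, with a standard deviation as large as the mean. *Gad2* was at 2.98 ± 0.320 and 3.47 ± 0.352 FPKM. In the mean over the 6 libraries, *Abat* stood above 71.2% of the tested genes, *Aldh5a1* above 30.4%, *Gad1* above 29.4% and *Gad2* above 20.2%, and the median tested gene had 11.6 FPKM. *Gad1* did not differ from *Aldh5a1* or *Gad2* beyond its own spread, because its place in the order moved with the replicate number. In replicates 1 and 2 of both conditions the order was *Abat*, *Aldh5a1*, *Gad2*, *Gad1*, and in both replicate 3 libraries it was *Abat*, *Gad1*, *Aldh5a1*, *Gad2*.

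*Gad1* was low in 4 libraries and high in both replicate 3 libraries. Control replicates 1, 2 and 3 held 94, 116 and 666 counts, which is 5.50, 6.75 and 38.2 CPM. *Thada*-activated replicates 1, 2 and 3 held 110, 90 and 645 counts, or 6.19, 5.17 and 36.7 CPM. Both replicate 3 libraries lay far above the others, while the conditions overlapped throughout. Replicate 3 exceeded the mean of replicates 1 and 2 by 2.55 in control and 2.59 in *Thada*-activated cells on the log2(CPM + 0.5) scale, that is 5.86-fold and 6.03-fold. Of the tested genes, 11.5% lay above all 4 other libraries in both replicate 3 libraries with over 1.5-fold in each condition, and *Gad1* was the only one of the 4 genes to do so. Since the genes were chosen with this contrast in view, nothing is read from that count. Between conditions at the same replicate number, the differences of *Thada*-activated minus control were 0.16, -0.35 and -0.058 (log2) for replicates 1, 2 and 3, so the sign was not shared. In bulk RNA, more cells with *Gad1* transcripts and more transcripts per cell cannot be told apart.

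*Gad2* varied little. It had 14.5, 16.8 and 17.9 CPM in control replicates 1, 2 and 3 (247, 289 and 312 counts). The *Thada*-activated replicates 1, 2 and 3 had 16.7, 19.4 and 20.2 CPM (297, 337 and 355 counts). Within each replicate number the *Thada*-activated library was the higher, by 0.20, 0.20 and 0.17 (log2), but the ranges of the conditions overlapped. Replicate 3 was highest in both conditions, by only 0.19 in control and 0.16 in *Thada*-activated cells (log2) over the mean of the other replicates. This was less than the gap between replicates 1 and 2.

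**Figure D1:**
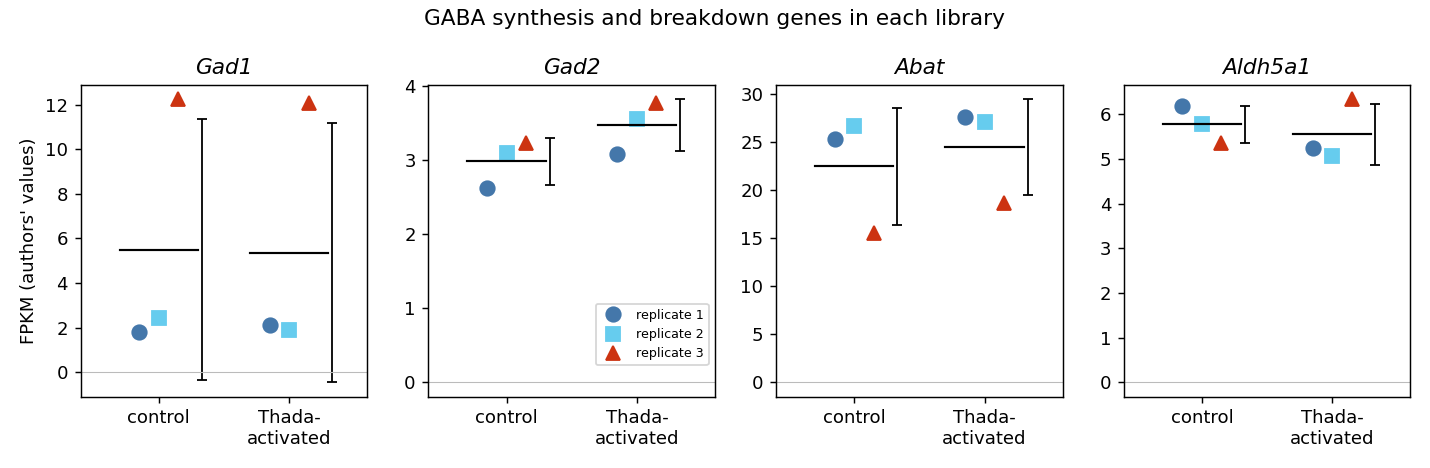
FPKM of *Gad1*, *Gad2*, *Abat* and *Aldh5a1* in each of the 6 libraries by condition, with symbols for the replicate number, a horizontal line for the mean of 3 libraries and a bar for 1 SD on each side; each gene has its own linear axis from below 0. Replicate 3 is the high library for *Gad1* (12.3 and 12.1 FPKM) and the low one for *Abat* (15.5 and 18.7 FPKM).

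The balance of the decarboxylase isoforms therefore followed *Gad1*. As a ratio of FPKM, *Gad1* to *Gad2* was 0.687, 0.793 and 3.79 in control replicates 1, 2 and 3. The ratio was 0.685, 0.535 and 3.20 in *Thada*-activated replicates 1, 2 and 3. *Gad2* was the more abundant transcript per length in 4 libraries and *Gad1* in both replicate 3 libraries, irrespective of the condition. The 95% exact binomial intervals of these ratios, which cover counting error only, reached from 0.419 to 0.987 over the 4 libraries of replicates 1 and 2, and from 2.81 to 4.35 over those of replicate 3. As a ratio of counts, which ignores length, *Gad1* to *Gad2* was lower, at 0.381, 0.401 and 2.13 in control replicates 1, 2 and 3. The count ratio was 0.370, 0.267 and 1.82 in *Thada*-activated replicates 1, 2 and 3. *Gad1* made up 40.7%, 44.2% and 79.1% of the summed FPKM of both genes in control replicates 1, 2 and 3, and 40.7%, 34.9% and 76.2% in *Thada*-activated replicates 1, 2 and 3. The log2 ratio of FPKM in replicate 3 exceeded the mean of replicates 1 and 2 by 2.36 in control and by 2.40 in *Thada*-activated cells. Between conditions, its mean was 0.35 ± 1.37 in control and 0.077 ± 1.40 in *Thada*-activated cells (SD, n = 3), with an SD that comes largely from replicate 3. Within replicates 1, 2 and 3, *Thada*-activated minus control was -0.0041, -0.57 and -0.24 (log2). The sign was thus shared, but in replicate 1 the ratios, 0.687 and 0.685, were nearly equal. Their binomial intervals there, 0.536 to 0.875 in control and 0.545 to 0.855 in *Thada*-activated cells, largely coincided, so that sign is not resolved. These values are description and were not tested. Summed over both isoforms, replicate 3 had 15.5 FPKM in control and 15.9 in *Thada*-activated cells, which was 3.11 and 2.98 times the mean of replicates 1 and 2.

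**Figure D2:**
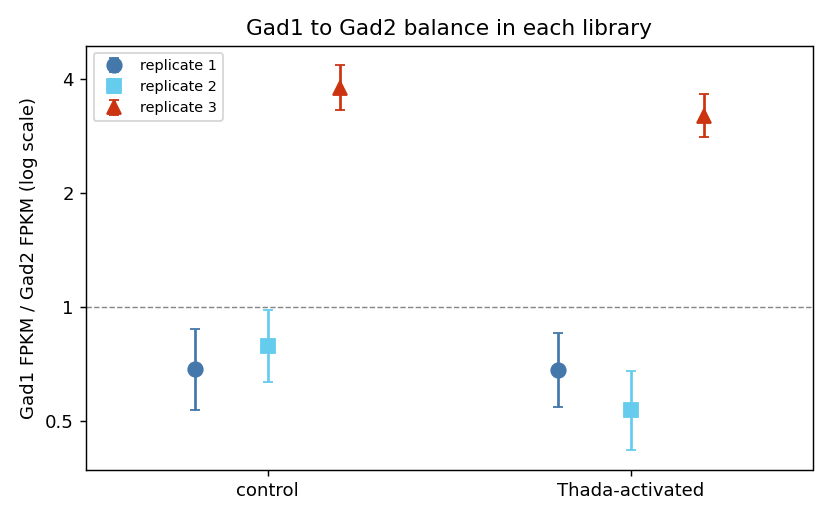
Ratio of *Gad1* FPKM to *Gad2* FPKM in each of the 6 libraries, on a log axis, with bars for the 95% exact binomial interval from the counts; the dashed line marks equal levels. The replicate 3 libraries lie at 3.79 and 3.20, and the other 4 between 0.535 and 0.793.

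Both decarboxylase genes lie on the plus strand of mouse chromosome 2, 47.9 Mb apart. On GRCm38 the table of the authors places *Gad1* at chr2:70561483-70602014 with 10 transcripts and *Gad2* at chr2:22621422-22693877 with 3. The counts of a gene divided by its FPKM, scaled by the library total, give the effective length used for it, which for *Gad2* stayed between 5440 and 5467 bases. For *Gad1* it was 3023, 2758 and 3073 bases in control replicates 1, 2 and 3, and 2941, 2725 and 3100 bases in *Thada*-activated replicates 1, 2 and 3. The replicate 3 libraries had the longest values for *Gad1*, though replicate 1 of control came close. GENCODE also lists an antisense gene, *Gad1os*, at chr2:70489940-70563357 on the minus strand, which overlaps the GENCODE span of *Gad1*, beginning at 70553072, over 10286 bases. Their annotated exons share 0 bases. Strand use in counting is not given in the sources used here, and *Gad1os* was not analysed.

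Because the isoforms differ in how they vary across these libraries, sequence around an annotated start of each gene is shown, from the RefSeq promoter windows of 300 bases (GRCm38.p6, plus strand). Of the 4 genes, 3 matched this set, and *Abat* is named only. Printed is the stretch of each window outside annotated exons, chr2:70561879-70562041 for *Gad1* and chr2:22622077-22622204 for *Gad2*. Both stretches lie inside the spans given above, which begin further upstream. They are printed with capitals for matches to any of 4 motifs on either strand: TGACGTCA (the cyclic AMP response element), TATAAA (the TATA box), GGGCGG (the GC box) and CCAAT (the CCAAT box).
Gad1: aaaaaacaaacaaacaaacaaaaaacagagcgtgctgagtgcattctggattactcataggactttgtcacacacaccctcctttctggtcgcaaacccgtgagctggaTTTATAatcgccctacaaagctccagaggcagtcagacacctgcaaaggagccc
Gad2: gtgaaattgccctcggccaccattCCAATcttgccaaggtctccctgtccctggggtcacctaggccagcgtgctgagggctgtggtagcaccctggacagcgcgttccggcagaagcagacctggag
Over its whole window *Gad1* had 1 match to the TATA box and 1 to the GC box, both on the minus strand, whereas *Gad2* had 2 to the CCAAT box and *Aldh5a1* had 1 to the CCAAT box. Of 32851 promoter windows of this length, 13.6% held the TATA box, 35.7% the GC box, 37.4% the CCAAT box and 1.79% the cyclic AMP response element, which none of these 3 windows held. The motifs do not overlap each other in these windows, and a match is only a run of letters. The share of G and C was 60.0%, 61.3% and 60.3% in the windows of *Gad1*, *Gad2* and *Aldh5a1*, above the median window at 52.7%.

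*Abat*, the transaminase that removes GABA, was lower in replicate 3. Its values were 112, 116 and 69.8 CPM in control replicates 1, 2 and 3, from 1919, 1997 and 1218 counts. In *Thada*-activated replicates 1, 2 and 3 they were 120, 119 and 81.6 CPM, from 2135, 2062 and 1435 counts. Both replicate 3 libraries were below the other 4, and the conditions overlapped. The difference of replicate 3 from replicates 1 and 2 was -0.71 in control and -0.55 in *Thada*-activated cells (log2), which is 1.63-fold and 1.46-fold lower. The second of these misses the 1.5-fold mark, so *Abat* was outside the 11.3% of tested genes that lay below in both conditions by over 1.5-fold. Within each replicate number the *Thada*-activated library was slightly higher, by 0.097, 0.029 and 0.22 (log2). *Abat* lies at chr16:8513429-8621568 on the plus strand.

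*Aldh5a1*, the enzyme that passes the carbon of GABA on to succinate, varied little over the 6 libraries. It had 34.3, 31.7 and 29.8 CPM in control replicates 1, 2 and 3 (586, 545 and 519 counts). It had 28.7, 27.8 and 34.2 CPM in *Thada*-activated replicates 1, 2 and 3 (510, 484 and 602 counts). Replicate 3 was the lowest library of control and the highest of *Thada*-activated cells, with differences of -0.15 and 0.27 (log2) from the mean of replicates 1 and 2. The order of the conditions turned with it: *Thada*-activated minus control was -0.25, -0.19 and 0.20 (log2) in replicates 1, 2 and 3. The gene lies at chr13:24907579-24937661 on the minus strand.

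Set against the decarboxylase genes per length, *Abat* was far above their sum in replicates 1 and 2 and close to it in replicate 3. Its FPKM was 5.73, 4.80 and 1.00 times the sum of *Gad1* and *Gad2* in control replicates 1, 2 and 3. It was 5.31, 4.97 and 1.18 times that sum in *Thada*-activated replicates 1, 2 and 3. Both a higher *Gad1* and a lower *Abat* entered into this shift, which was seen in both conditions. *Aldh5a1* differed from *Abat* here, with 1.40, 1.05 and 0.346 times the sum in control and 1.01, 0.930 and 0.400 times in *Thada*-activated replicates 1, 2 and 3, so it was nearest to the sum in replicates 1 and 2. Within breakdown, *Abat* to *Aldh5a1* was 4.10, 4.59 and 2.90 in control and 5.26, 5.35 and 2.94 in *Thada*-activated replicates 1, 2 and 3, so both replicate 3 libraries had the lowest ratios. These are ratios of transcripts, and enzyme activity and GABA itself were not measured here.

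Whether *Thada* activation moved these genes was asked of the edgeR quasi-likelihood fit across all 12516 tested genes, with Benjamini-Hochberg adjustment; all 4 genes passed its filter on low counts. The rule for the genes names this contrast too, so the values are given as output of the fit. Across those genes 0%, or 0 genes, were called at an adjusted p under 0.05 with over 1.5-fold, and 101 had an unadjusted p under 0.05. Adding a block for the replicate number gave 19 called genes (0.152%), and none was among the 4. The DESeq2 Wald test called 5. The fit gave a log2 fold change of -0.071 ± 1.06 (SE) for *Gad1*, 0.19 ± 0.14 for *Gad2*, 0.10 ± 0.25 for *Abat* and -0.078 ± 0.13 for *Aldh5a1*, each at an adjusted p of 1. The large error of *Gad1* comes with the spread over replicate numbers: with the block it was -0.081 ± 0.11, and in replicates 1 and 2 alone -0.11 ± 0.16. With the block, *Gad2* was at 0.20 ± 0.088, *Abat* at 0.11 ± 0.064 and *Aldh5a1* at -0.080 ± 0.094. Their unadjusted p there was 0.046, 0.101 and 0.413, and their adjusted p 0.466, 0.576 and 0.811, from edgeR. *Gad1* turned to 1.39 without control replicate 3, to 0.31 without *Thada*-activated replicate 1 and to 0.35 without *Thada*-activated replicate 2. *Abat* turned to -0.098 without control replicate 3. In replicates 1 and 2 alone, *Gad2* was at 0.21 ± 0.10, *Abat* at 0.064 ± 0.055 and *Aldh5a1* at -0.22 ± 0.079, with adjusted p of 0.318, 0.629 and 0.113 from edgeR. Over all alternatives the adjusted p of the 4 genes ranged from 0.113 to 1. For comparison, *Thada* had a log2 fold change of 1.13 ± 0.22 at an adjusted p of 1, and with the replicate block 1.15 ± 0.099 at an adjusted p of 0.00041.

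The wider pathway was described by 11 lists of genes, 106 in all, of which 101 are in the table and 79 passed the filter. edgeR called 0 of the 79 between conditions, with 0 at an unadjusted p under 0.05, and the block and the DESeq2 Wald test also called 0. With the block, 12 of the 79, *Gad2* among them, had an unadjusted p under 0.05 (15.2%), against 1302 of all tested genes (10.4%). The median log2 fold change of the 79 was -0.011, against -0.0040 over all tested genes. Libraries of the conditions did not overlap for 4 of the 79 genes (5.06%), against 5.4% of all tested genes. In the replicate 3 contrast, 11 of the 79 (13.9%) lay above in both conditions by over 1.5-fold and 7 (8.86%) lay below, beside 11.5% and 11.3% of all tested genes. The median replicate 3 difference of the 79 was -0.0094 in control and 0.10 in *Thada*-activated cells (log2), against 0.00048 and 0.0020 over all tested genes.

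**Figure D3:**
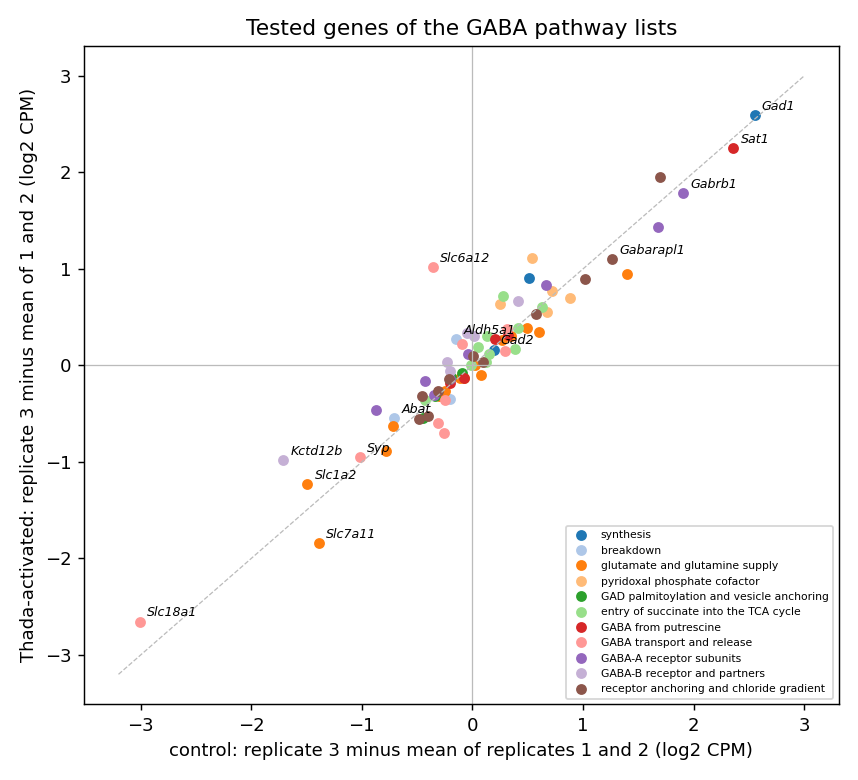
Difference of replicate 3 from the mean of replicates 1 and 2 in log2(CPM + 0.5), in control (horizontal axis) and in *Thada*-activated libraries (vertical axis), for the 79 tested genes of the GABA pathway lists, each point a gene coloured by list; the dashed line marks equal differences. *Gad1* is at 2.55 and 2.59 and *Slc18a1* at -3.01 and -2.65, while *Slc6a12* lies off the line at -0.36 and 1.02.

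Among other decarboxylases of the synthesis list, *Csad*, which makes the precursor of taurine, had replicate 3 differences of 0.51 in control and 0.90 in *Thada*-activated cells (log2). The related *Gadl1* was at or under 3 counts in every library. In the breakdown list, *Akr7a5*, whose product reduces succinic semialdehyde, had differences of -0.20 and -0.35 and a log2 fold change between conditions of 0.27 ± 0.16 (SE).

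Genes that supply glutamate, the substrate of the decarboxylases, were mostly well expressed, and 15 of 19 were tested, with a median log2 fold change between conditions of -0.041. The mitochondrial aspartate aminotransferase *Got2* had the highest level, 108.7 FPKM, and hardly moved with the replicate number (0.019 and 0.0038 in log2 for control and *Thada*-activated cells). Replicate 3 was below in both conditions by over 1.5-fold for 4 of the 15, beside 11.3% of all tested genes. These were the glutamine synthetase *Glul* (-0.72 and -0.63), the glutamate transporter *Slc1a2* (-1.49 and -1.23), the cystine and glutamate exchanger *Slc7a11* (-1.39 and -1.84) and the glutamine transporter *Slc38a2* (-0.78 and -0.89), the last chosen for mention after its values were seen. The alanine aminotransferase *Gpt* was above in replicate 3 (1.40 and 0.95). Between conditions *Gpt* had a log2 fold change of 0.65 ± 0.59 (SE), *Slc1a2* of -0.24 ± 0.50 and *Glul* of 0.21 ± 0.27. Without 1 library at a time, that of *Gpt* ran from 0.22 (without *Thada*-activated replicate 3) to 1.41 (without control replicate 3). In replicates 1 and 2 alone *Gpt* was called, at 1.00 ± 0.25 and an adjusted p of 0.0123 from edgeR, whereas its adjusted p with the block over all libraries was 0.258. Over all alternatives that p ranged from 0.0103 to 1.

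For pyridoxal phosphate, the cofactor that both decarboxylases and the transaminase need, all 5 listed genes were tested. All 5 were higher in replicate 3 than the mean of replicates 1 and 2 in both conditions, as were 43.1% of all tested genes, and 2 of the 5, *Pdxk* and *Pdxp*, lay above by over 1.5-fold, beside 11.5% of all. The median difference was 0.68 in control and 0.70 in *Thada*-activated cells (log2). *Pdxk*, the kinase that phosphorylates vitamin B6, had 0.72 and 0.77, and the phosphatase *Pdxp*, which works against it, had 0.89 and 0.70. *Plpbp*, whose product binds the cofactor, had 0.68 and 0.55, and the phosphatase *Alpl* had 0.54 and 1.11 from only 9 to 34 counts. Their median log2 fold change between conditions was -0.035.

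The palmitoyl transferase *Zdhhc17*, which modifies the *Gad2* product, had replicate 3 differences of -0.20 and -0.12 (log2) in control and *Thada*-activated cells. *Dnajc5*, a chaperone of vesicles, had -0.33 and -0.32, and *Ywhaz*, the list's most abundant gene at 130.7 FPKM, had -0.45 and -0.55. All 4 genes of that list were lower in replicate 3 than the mean of replicates 1 and 2 in both conditions, as were 42.9% of all tested genes, and 0 of the 4 lay below by over 1.5-fold, beside 11.3% of all. Of the 10 genes through which succinate is formed and oxidised in the TCA cycle, the replicate 3 medians were 0.14 and 0.18. The succinate dehydrogenase subunit *Sdhd* lay above by over 1.5-fold (0.63 and 0.60), and *Sdhc*, at 100.8 FPKM, had 0.42 and 0.39. *Suclg2*, a subunit of succinyl-CoA ligase, had 0.28 and 0.72 and *Suclg1* 0.052 and 0.19, while *Dlst* of the oxoglutarate dehydrogenase complex had 0.12 and 0.034. *Ogdh* of the same complex, at 81.4 FPKM and chosen for mention after its values were seen, was lower in replicate 3 (-0.43 and -0.35).

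GABA can also be made from putrescine, a route on which *Sat1*, the polyamine acetyltransferase, had a replicate 3 pattern close in size to that of *Gad1*. Its differences were 2.36 in control and 2.25 in *Thada*-activated cells (log2), or 5.13-fold and 4.75-fold. The ornithine decarboxylase *Odc1*, which makes putrescine, had -0.20 and -0.18. The monoamine oxidases had small positive differences, 0.32 and 0.31 for *Maoa* and 0.20 and 0.27 for *Maob*. The diamine oxidase *Aoc1* and the aldehyde dehydrogenase *Aldh1a1* were at or under 3 counts in every library.

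Of 16 genes for transport and release of GABA, 9 were tested. The vesicular GABA transporter *Slc32a1* and the channel *Best1* were at or under 3 counts in every library. The taurine transporter *Slc6a6*, which also carries GABA, was instead abundant at 45.4 FPKM. It had 255, 255 and 239 CPM in control replicates 1, 2 and 3 and 265, 275 and 316 CPM in *Thada*-activated replicates 1, 2 and 3. All *Thada*-activated libraries were above all control libraries, with a log2 fold change of 0.19 ± 0.12 (SE) that was not called. The betaine and GABA transporter *Slc6a12* was low, at 1.55 to 5.12 CPM, with a log2 fold change of 0.72 ± 0.43. This rests on *Thada*-activated replicate 3 at 5.12 CPM, as no other library was over 2.58 CPM, and *Thada*-activated minus control was -0.16, 0.32 and 1.46 (log2) in replicates 1, 2 and 3. Of the volume-regulated anion channel subunits, *Lrrc8d* had replicate 3 differences of -0.26 and -0.70 (log2), and *Lrrc8b* had 0.31 and 0.38. The synaptic vesicle protein *Syp*, at 240.6 FPKM, had -1.02 and -0.95, and the monoamine transporter *Slc18a1* had -3.01 and -2.65 from 5 to 105 counts.

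GABA-A receptors are pentameric chloride channels, and 8 of 19 subunit genes passed the filter. *Gabrb1* (1.91 and 1.79 in log2) and *Gabrd* (1.68 and 1.43) lay above in replicate 3 by over 1.5-fold in both conditions, at 0.205 and 0.823 FPKM in the mean; this is 2 of 8, beside 11.5% of all tested genes. *Gabra3* was also over 1.5-fold higher in replicate 3 in both conditions (0.66 and 0.84), but its *Thada*-activated replicate 3 was not above every control library. *Gabra5* had -0.87 and -0.46 from 5 to 21 counts. *Gabra3* had the lowest log2 fold change between conditions of the 79 tested genes, -0.80 ± 0.41 (SE). It was lower in the *Thada*-activated library of each replicate number, with differences of -0.85, -0.72 and -0.61 (log2). Without 1 library at a time, its log2 fold change ran from -1.19 (without *Thada*-activated replicate 3) to -0.52 (without control replicate 3). *Gabra3* was called in replicates 1 and 2 alone, at -0.91 ± 0.23 and an adjusted p of 0.0129 from edgeR. With the block over all libraries it was not called, at an adjusted p of 0.107 from edgeR. Over all alternatives its adjusted p ranged from 0.00911 to 1.

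The metabotropic GABA-B receptor had all 6 genes tested. Its subunit gene *Gabbr2* had 93.1, 87.9 and 76.8 CPM in control replicates 1, 2 and 3 and 96.5, 96.5 and 99.1 CPM in *Thada*-activated replicates 1, 2 and 3. Its values in the conditions did not overlap, with a log2 fold change of 0.18 ± 0.11 (SE). Nor did they for the auxiliary subunit genes *Kctd8* (0.34 ± 0.16) and *Kctd16* (-0.44 ± 0.32, from 8 to 14 counts), and none of these 3 was called. That is 3 of 6 genes without overlap, beside 5.4% of all tested genes, but *Kctd16* had equal counts in both replicate 3 libraries (0.745 CPM in control and 0.739 in *Thada*-activated cells), so its place among them rests on the scaling, and 2 of 6 remain without it. *Kctd12b* lay below in replicate 3 (-1.71 and -0.98 in log2), and *Kctd12* had 0.41 and 0.66.

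For receptor anchoring and the chloride gradient, 11 of 12 genes were tested, and 3 lay above in replicate 3 by over 1.5-fold in both conditions, beside 11.5% of all tested genes. Among them were *Gabarapl1* (1.27 and 1.10 in log2) and the adhesion protein gene *Nlgn2* (1.02 and 0.90). *Gphn*, the gephyrin scaffold gene, had -0.40 and -0.52. *Gabarap* was the most abundant at 404.5 FPKM and hardly differed (0.095 and 0.031). The chloride importer *Slc12a2* had -0.21 and -0.14, and 0.13 ± 0.11 (SE) as its log2 fold change between conditions.

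Genes with a pattern most like that of each of the 4 were sought among 10715 tested genes with a mean of at least 5 CPM, by the root mean square difference of centred log2(CPM + 0.5) over the 6 libraries. For *Gad1* these included *Itpka* (0.068), *Mcam* (0.11), *Dhx58* (0.13) and *Tmem255a* (0.13). *Itpka*, a kinase of inositol trisphosphate, had from 1.72 to 16.7 CPM, with replicate 3 differences of 2.72 and 2.64 (log2). *Gad2* was most like *Tent5b* (0.043), *Fbxo6* (0.061), *Gtf2f2* (0.062), *Fbxw7* (0.066) and *Chrd* (0.068). The nearest to *Abat* were *Rcan3* (0.021), *Anapc5* (0.023), *Dusp3* (0.025), *Anks3* (0.025) and *Abcc4* (0.025), closer than any gene came to the other 3. For *Aldh5a1* they were *Smim19* (0.036), *Cyth3* (0.038), *1110008L16Rik* (0.045), *Ptpmt1* (0.051) and *Tmtc2* (0.054).

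*Gad1* is also a marker of GABAergic neurons, so markers of other cells were read beside it. Of 9 genes for GABAergic neurons, 6 are in the table, and *Dlx1*, *Dlx2*, *Pvalb* and *Slc32a1* were at or under 3 counts in every library. The 6 summed to 1004, 873 and 1006 CPM in control replicates 1, 2 and 3 and to 1020, 1027 and 1057 CPM in *Thada*-activated replicates 1, 2 and 3, nearly all of it *Npy*. *Lhx6*, the other one above the floor, was higher in replicate 3 by 1.87-fold and 1.99-fold. The alpha cell list, with 4 of 5 genes and led by *Ttr*, summed to 673 and 810 CPM in the replicate 3 libraries and from 1207 to 1324 CPM in the others, though *Irx2* was higher in replicate 3 by 1.36-fold and 1.37-fold. The delta cell list of 3, led by *Sst*, had 75.8 and 68.7 CPM against 134 to 161 CPM, with *Hhex* at or under 3 counts. This fall was that of *Sst*, while *Rbp4* was higher in replicate 3 by 1.34-fold and 1.68-fold. The PP and epsilon cell pair, led by *Ppy*, had 27.9 and 39.0 CPM against 17.9 to 22.6 CPM, with *Ghrl* at or under 3 counts. The duct list, with 4 of 5 genes and led by *Krt7*, had 76.3 and 100.2 CPM against 153 to 188 CPM, with *Sox9* at or under 3 counts.

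Markers of cells that a pure line should lack were scarce. Glial genes, 4 of 5 in the table and led by *Aqp4*, summed to 8.77 and 12.1 CPM in the replicate 3 libraries and from 2.46 to 3.72 CPM in the others, with *Gfap* and *S100b* at or under 3 counts. Fibroblast genes, 4 of 5 and led by *Col1a1*, had 4.87 and 6.37 CPM in replicate 3 and from 2.79 to 3.79 CPM in the others, mainly by *Col1a1* (2.02-fold and 2.13-fold), whereas *Col1a2* had 0.709-fold and 1.06-fold. The genes *Irx2*, *Rbp4* and *Col1a2* were named after their values were seen. Macrophage genes, 2 of 4 and led by *Cd68*, reached at most 1.24 CPM with *Adgre1* at or under 3 counts, and the 3 endothelial genes, led by *Pecam1*, at most 1.26 CPM with *Cdh5* and *Kdr* at or under 3 counts. Of 5 acinar genes, 0 are in the table. Several of these lists thus moved with replicate 3, as *Gad1* and *Abat* did, and their part in the differences of *Gad1* and *Abat* was not tested.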

How the data were processed

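The authors deposited an estimated count for every gene and library, as RSEM gives it, without normalization. FPKM and TPM values per library, which are scaled by gene length and library size, were deposited by the authors in a table of the whole series. That table also holds the authors' mean values per condition and the log2 fold change, p-value and q-value of the authors' own DESeq2 comparison, and none of these was used. The submitters' processing notes name Bowtie2, RSEM, DESeq2 and GRCm38, with no versions. The study gives BGISEQ-500 as the sequencing platform, whereas the sample labels name Illumina protocols for library preparation. TPM values were not used either.

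After rounding to whole numbers, the estimated counts were analysed with R 4.3.3 and edgeR 4.0.16 (filterByExpr, TMM, robust quasi-likelihood test on condition alone, Benjamini-Hochberg). Called genes have an adjusted p under 0.05 and over 1.5-fold change. CPM values use TMM library sizes, and log2 values add 0.5 CPM. At or under 3 counts, from 0.169 to 0.176 normalized CPM, a gene was taken as at the floor, which covers counting error only. Ratios between genes use FPKM with no pseudocount. Coordinates of *Gad1os* and exons are from GENCODE M21 and promoter windows from RefSeq. The fitting code was checked on simulated data with known changes. Without simulated replicate differences, recovery of the changes was required of the fits with and without the block. With such differences it was required only of the fit with the block. The fit on condition alone was thus not held to that check where replicates differ, as they do here.

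The members, contrasts and gene lists were chosen with earlier results of these data known. The genes named are the 4 members, *Thada*, and from each list any gene called, the 3 tested genes with the largest absolute log2 fold change between conditions, the 3 with the largest absolute replicate 3 difference and the gene with the highest mean FPKM. Added to these are the 5 genes most like each member and the most counted marker of each cell type. The β-cell markers other than *Ins2*, *Lhx6* and genes at or under 3 counts were named outside these criteria. So were the genes marked as named or chosen after their values were seen. Some genes that meet these criteria are not reported here.

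Replicate numbers come from the sample titles. Deviations from the condition means correlated across genes at 0.746, 0.740 and 0.895 between conditions for replicates 1, 2 and 3, so the numbers were taken as pairing the libraries. Replicates 1 and 2 crossed gave 0.769 and 0.770, and either with 3 gave -0.829 to -0.817, so the numbers set replicate 3 apart but do not separate 1 from 2. No libraries of a condition were duplicates by a chi-square test.

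Alternatives changed the scaling (DESeq2 size factors, or totals that leave out the 20 top genes), the test (the Wald test of DESeq2 1.42.0, or limma 3.58.1 with trend on FPKM values after adding 1 or 0.1 and taking log2), the filter (none, or at least 10 counts in all libraries), the thresholds, the pseudocount, the libraries (each left out in turn, or both of replicate 3) and the model (a replicate block).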

Additional observations from a re-analysis of the deposited data

Results flagged for a closer look

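Replicate 3 lay on opposite sides of both other replicates in the 2 conditions for 5 of the 49 pathway genes that met the naming criteria. It was below them in control and above them in *Thada*-activated cells. The share of all tested genes with this pattern was not counted, so nothing is read from the number. Replicate 3 was higher than the mean of replicates 1 and 2 in both conditions for 43.1% of all tested genes, and lower for 42.9%. The difference between conditions was not tested. *Aldh5a1* had -0.15 in control and 0.27 in *Thada*-activated cells (log2 difference of replicate 3 from the mean of replicates 1 and 2). *Slc6a12* had -0.36 and 1.02, from 27 to 90 counts. *Slc6a6* had -0.094 and 0.23, *Gabbr2* had -0.23 and 0.037, and *Kctd16*, from 8 to 14 counts, had -0.048 and 0.33. For *Kctd16*, control replicates 2 and 3 had equal counts (0.756 and 0.745 CPM), so its place here rests on the scaling.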

How the results depend on the processing

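No member was called under any of the 16 other fits. The count of called genes, 0 in the edgeR fit on condition alone, was 5 by the DESeq2 Wald test, 19 with the replicate block (13 higher, 6 lower), 68 in replicates 1 and 2 alone and 70 there with the block; the others called 0, as did each fit without 1 library. Pathway genes called were 0, but 2 in replicates 1 and 2 alone, with or without the block (*Gpt* and *Gabra3*). *Thada* passed the threshold by the DESeq2 Wald test (1.13), with the replicate block (1.15) and in replicates 1 and 2 alone with or without the block (0.99), and its adjusted p over all alternatives ranged from 1.41e-22 to 1. The paired fit changed no other call named here. Without 1 library at a time, the log2 fold change ran from -1.57 to 1.39 for *Gad1*, 0.11 to 0.27 for *Gad2*, -0.098 to 0.26 for *Abat*, -0.18 to -0.021 for *Aldh5a1* and 0.93 to 1.26 for *Thada*. *Gad1* was positive without control replicate 3 (1.39) and without *Thada*-activated replicates 1 (0.31) or 2 (0.35), and *Abat* was negative without control replicate 3 (-0.098); with 3 against 2 libraries, the weight of replicate 3 differs between the conditions by construction. For *Gad2*, whose within-replicate differences spread by only 0.018 (SD), other scalings moved them by more than that: to 0.22 in replicates 1 and 3 with library totals, to 0.20 in replicate 3 without the 20 top genes, and with log2(FPKM + 0.5) to 0.17 in replicate 2 and 0.20 in replicate 3. No other scaling or pseudocount turned the sign of a replicate 3 difference, a within-replicate difference or a *Gad1* to *Gad2* ratio. Taken from counts, which ignore length, the *Gad1* to *Gad2* ratio was lower in every library, by up to 1.00 (log2). *Gad1* in replicates 1 and 2 rests on 90 to 116 counts a library, which limits its ratio there.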
